A study of Mus musculus with 10 samples.

Results

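The 34 genes described here make, trim and carry heparan sulfate in mouse cerebral cortex at postnatal day 8. They were listed by name and role, with earlier results of these data, the fall of Sulf1 among them, already known: 2 extracellular sulfatases, 5 chain polymerases of the Ext family, 4 N-deacetylase/N-sulfotransferases, the epimerase with the 2-O-sulfotransferase, 5 3-O-sulfotransferases, 3 6-O-sulfotransferases, heparanase, 6 glypicans, 4 syndecans and 2 secreted proteoglycans. All 34 were in the table of 30935 genes, and all 34 passed the filter on low counts among the 15488 genes tested. The RNA came from 5 knockout mice, which carry ΔHAR.505 on both Rbfox1 alleles and so lack the element labelled HAR.505, and from 5 wild-type (Rbfox1 +/+) mice. Each library is an independent biological sample by the study's design. The labels used here name neither strain nor sex, nor do they say how many founder lines the deletion represents.

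Heparan sulfate is a sugar chain that the Ext polymerases build on core proteins in the Golgi and that sulfotransferases then modify, first at the nitrogen of glucosamine and then at oxygen positions of both sugars. Outside the cell the pattern of sulfates sets which growth factors and guidance cues bind, among them fibroblast growth factors, Wnts and Slits. Sulf1 and Sulf2 are the enzymes that edit this pattern after secretion, by removing sulfate from the 6-O position, and in developing brain the chains take part in axon guidance, neurogenesis and synapse formation.

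Both sulfatases share a catalytic cysteine that is converted to formylglycine, and the stretch around it is printed to show how alike these genes are where the enzyme works and how they can still be told apart by sequenced reads. The 90 bases of coding sequence are from GENCODE release M21 on GRCm38, 5′ to 3′, where Sulf1 lies on chromosome 1 and Sulf2 on chromosome 2. Capitals mark bases that differ between both genes.
Sulf1: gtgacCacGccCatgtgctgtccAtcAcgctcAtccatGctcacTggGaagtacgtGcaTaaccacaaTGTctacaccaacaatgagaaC
Sulf2: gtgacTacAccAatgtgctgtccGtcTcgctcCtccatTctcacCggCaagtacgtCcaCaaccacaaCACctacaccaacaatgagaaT
The cysteine codon takes bases 16 to 18 and is codon 87 of Sulf1 and codon 88 of Sulf2. Of the 90 bases, 75 were identical (83.3%) and 15 differed, and 93.3% of the codons encoded the same residue. Over the whole transcripts the longest exact run that both genes shared was 20 bases.

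The measurement was bulk RNA-seq with 16479594 to 22391943 counted reads per library, and values below are CPM, the reads of a gene scaled by library size. Rbfox1 itself, whose exons the deletion is not stated to remove, read 191 to 247 CPM in knockout and 205 to 238 CPM in wild-type libraries, so it does not serve as a check of the labels. Several libraries stood apart in tissue markers. Summed over 12 choroid plexus markers, knockout replicates 3, 5 and 6 held 115 to 119 CPM, replicate 8 held 193 CPM and replicate 1 held 359 CPM, against 343 to 437 CPM in wild-type libraries. Much of the difference between these sums lay in Ttr, the most abundant of these markers in wild-type libraries at 213 to 278 CPM. It stood at 200, 0, 0.490, 5.07 and 80.6 CPM in knockout replicates 1, 3, 5, 6 and 8. Otx2 was at 0 in knockout replicates 3 and 6. Cortical excitatory neuron markers summed to 2789 to 3176 CPM in knockout and 2669 to 2973 CPM in wild-type libraries, with none of them at 0 in any library. Knockout replicate 8 was the highest or lowest knockout library for 21 of the 34 members, where the other knockout libraries were so for 10 to 14.

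One member passed the test. Sulf1 was lower in knockout cortex (edgeR quasi-likelihood test, Benjamini-Hochberg adjusted p below 0.05 over all 15488 genes), 0 members were higher, and the other 33 did not pass. That is 2.94% of the members, against 0.381% of all tested genes called in either direction, 0.194% called lower and 0.187% called higher, and since the fall of Sulf1 was known when the list was made, nothing is read from that difference. At an unadjusted p below 0.05 there were 4 members (11.8%), 3 of them with higher means in knockout, against 8.71% of all genes. In 3 members (8.82%) no knockout library overlapped a wild-type library, against 1.83% of all genes. Hs3st3b1 and Hs3st4 were the 2 higher ones (all genes 0.93%) and Sulf1 the 1 lower one (all genes 0.897%). The median log2 fold change was 0.03 over the members and -0.0021 over all tested genes.

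**Figure D1:**
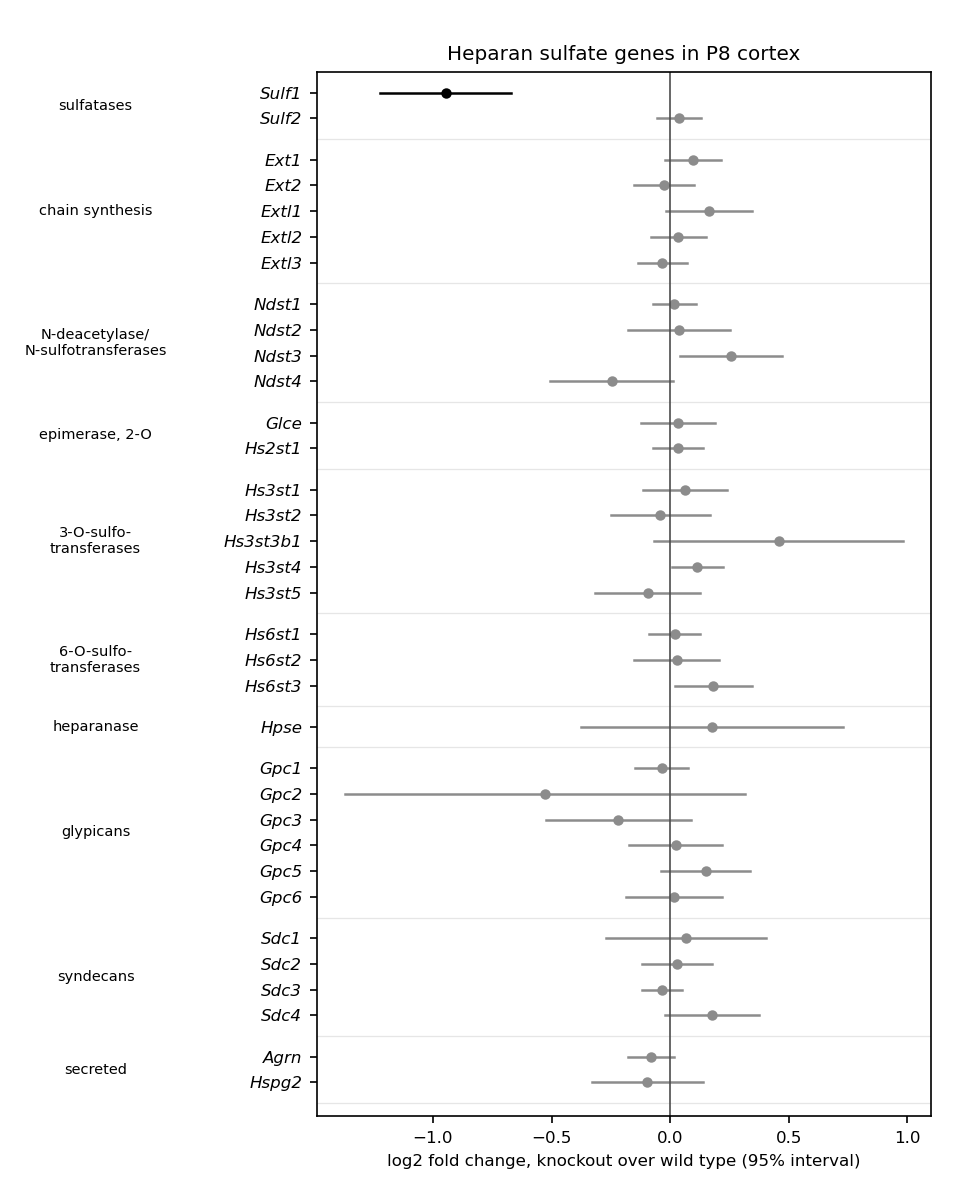
Log2 fold change of each of the 34 members, knockout over wild type, with its 95% interval from the edgeR fit, grouped by role; 0 means equal levels. Sulf1 at -0.95 is the member whose interval lies farthest from 0, while most other members sit close to the line.

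Sulf1 stood at 10.6, 8.999, 6.49, 9.30 and 9.34 CPM in knockout replicates 1, 3, 5, 6 and 8, against 14.0, 15.7, 23.1, 17.0 and 16.7 CPM in wild-type replicates 2, 4, 5, 6 and 7. The highest knockout library was below the lowest wild-type library, and wild-type replicate 5 was well above the other wild types. These levels rest on 106 to 177 reads per knockout library and 267 to 399 reads per wild-type library. The means were 8.95 ± 1.505 CPM in knockout and 17.3 ± 3.45 CPM in wild type (SD, n = 5 each). The fold was 0.519 with a 95% interval of 0.428 to 0.629, or -0.95 on the log2 scale (SE 0.135, edgeR adjusted p = 0.000456). By p-value Sulf1 was the second among all genes called lower.

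Sulf2, the sister enzyme with the same reaction, did not show this difference. It read 189, 187, 202, 201 and 198 CPM in the knockout libraries, against 181, 185, 197, 195 and 193 CPM in the wild-type libraries. The groups overlapped throughout, at 195 ± 6.88 CPM in knockout and 190.3 ± 7.14 CPM in wild type. The fold was 1.03 with a 95% interval of 0.962 to 1.10 (edgeR adjusted p = 0.902), so a fall of the size seen for Sulf1 lay outside the interval.

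The difference between both sulfatases was tested as a ratio within each library. Sulf1 amounted to 5.59, 4.82, 3.22, 4.63 and 4.71% of the Sulf2 CPM in knockout libraries and to 7.74, 8.49, 11.7, 8.68 and 8.64% in wild-type libraries, with no overlap. The log2 ratio averaged -4.47 ± 0.30 in knockout and -3.48 ± 0.23 in wild type (SD, n = 5 each), a difference of -0.99 or a 0.505-fold ratio. A two-sided exact permutation test of this difference, with genotypes reassigned among the libraries in every way, gave p = 0.00794, the smallest value this design allows. The ratio was chosen with the fall of Sulf1 known, so this p restates that the libraries do not overlap and is no further support. Per kilobase of exon, Sulf1 made up 2.33 ± 0.43% of the sulfatase RNA in knockout and 4.49 ± 0.72% in wild type, so Sulf2 was the predominant sulfatase transcript in both genotypes. With the longest transcript as the length of each gene, these shares were 3.62 ± 0.66% in knockout and 6.88 ± 1.07% in wild type.

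**Figure D2:**
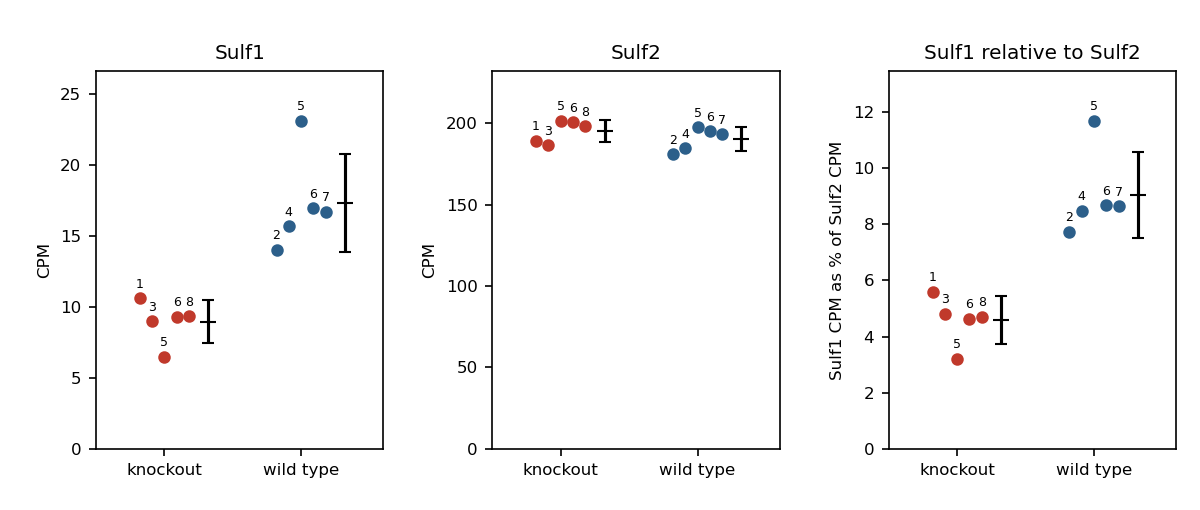
Sulf1 CPM, Sulf2 CPM and Sulf1 as a percentage of Sulf2 CPM, with knockout left of wild type, points for libraries with their replicate numbers and bars for the mean and SD of 5. Sulf1 and the percentage separate the genotypes, while Sulf2 overlaps at 187 to 202 CPM in knockout and 181 to 197 CPM in wild type.

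Markers of some other tissue and cell types were lower in knockout along with Sulf1, and those of others were not. Negative log2 fold changes were found for 0 of 11 microglia, 2 of 10 astrocyte, 2 of 12 oligodendrocyte lineage and 1 of 7 cortical excitatory markers. The counts were 4 of 10 for endothelial, 5 of 10 for mural, 5 of 12 for meningeal fibroblast and 3 of 8 for upper-layer markers. They were 4 of 8 for layer 5 and 5 of 9 for layer 6 and subplate markers. Of 6 thalamic markers tested, 5 had negative values and 0 passed the test. The median log2 fold change over all tested genes was -0.0021. Over all tested genes 0.194% were called lower by the edgeR test. Of 15 striatal projection neuron markers, 2 were lower by the same test (Six3, a striatal transcription factor, and Penk, which encodes proenkephalin), 0 were higher, and 13 had negative log2 fold changes. Their summed level was 387, 370, 390, 365 and 502 CPM in knockout replicates 1, 3, 5, 6 and 8, against 467, 446, 597, 483 and 455 CPM in wild-type replicates 2, 4, 5, 6 and 7. Isl1 was at 0 in knockout replicates 3 and 6. Of the 12 choroid plexus markers 2 were lower and 11 had negative log2 fold changes. Of 9 interneuron markers tested, 1 was lower and 8 had negative log2 fold changes, and the sums of 564 to 680 CPM in knockout and 673 to 759 CPM in wild type barely overlapped. Ependymal markers had negative values in 6 of 6 genes tested. Their sums were 5.91 to 15.3 CPM in knockout and 14.3 to 19.0 CPM in wild type. Erythroid markers had negative values in 5 of 5 genes tested. Their sums were 386 to 693 CPM in knockout and 483 to 684 CPM in wild type. Of either list, 0 genes passed the test. The part of these 3 lists in the Sulf1 difference was not tested. In whole tissue, fewer cells of a type and less RNA per cell cannot be told apart.

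Values of single libraries are given next, and no cause was tested on them. Knockout replicate 8 had a striatal sum of 502 CPM, above 4 of the 5 wild-type libraries, and 9.34 CPM of Sulf1, below all of them. Single genes of replicate 8 did not all follow that sum. Six3 (1.51 CPM) and Penk (11.0 CPM) were below the lowest wild-type values, 2.04 and 17.0 CPM. Drd1 (14.5 CPM) lay inside the wild-type range of 13.4 to 18.3 CPM, and Foxp1 (198 CPM) was above the wild-type range of 149 to 173 CPM. Markers of upper-layer neurons summed to 2501 CPM in replicate 8, against 1744 to 1920 CPM in wild-type libraries. Knockout replicate 1 had a choroid plexus sum of 359 CPM, inside the wild-type range, 200 CPM of Ttr, against 213 to 278 CPM in wild-type libraries, and 10.6 CPM of Sulf1. Wild-type replicate 5 had both the highest striatal sum (597 CPM) and the highest Sulf1 (23.1 CPM). Markers of layer 6 and subplate neurons overlapped, with sums of 450 to 508 CPM in knockout and 478 to 503 CPM in wild type, and none of the 9 passed the test. Of 16 marker lists, 0 had summed levels that separated the genotypes.

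The striatal and choroid plexus lists each entered the edgeR fit as a covariate, namely the scaled mean log2 CPM of their genes. This covariate is not the summed CPM given above. With the striatal covariate the log2 fold change of Sulf1 was -0.55 (SE 0.221, adjusted p = 0.9996, unadjusted p = 0.0183). With the choroid plexus covariate it was -0.71 (SE 0.218, adjusted p = 0.659, unadjusted p = 0.00293), and with knockout replicates 3, 5 and 6 left out it was -0.79 (SE 0.166, adjusted p = 0.0620, unadjusted p = 5.97e-05). The call was lost in each of these 3 fits and the sign was kept. Most genes of both lists had negative log2 fold changes in knockout themselves. The part of these markers in the Sulf1 difference and that of the deletion therefore cannot be told apart in these fits. Leaving out any 1 library kept the call, with values of -0.82 without wild-type replicate 5 to -1.01 without wild-type replicate 2.

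**Figure D3:**
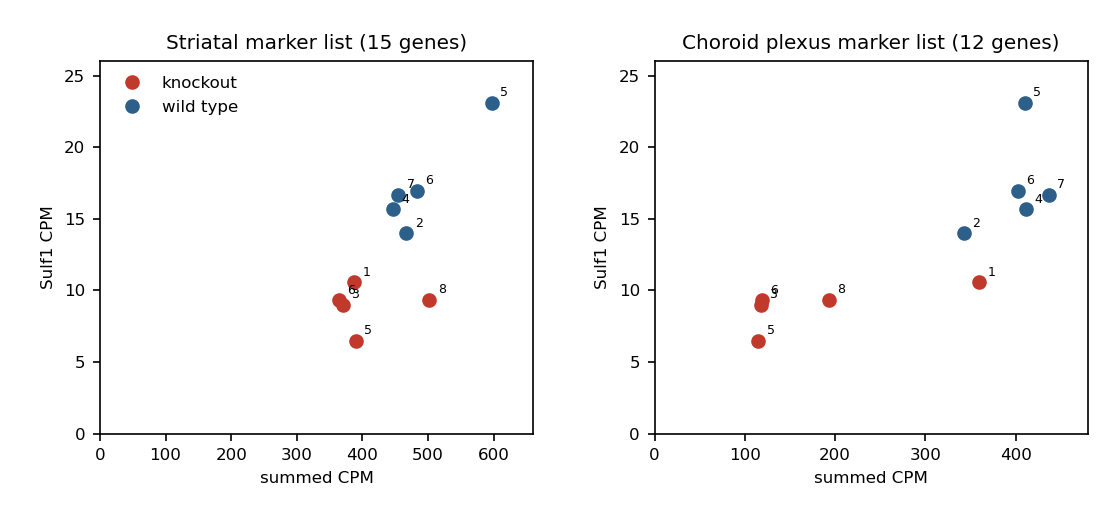
Sulf1 CPM against the summed CPM of 15 striatal markers (left) and of 12 choroid plexus markers (right), 1 point per library with its replicate number, knockout in red and wild type in blue. Knockout replicate 8 lies at 502 CPM of striatal markers and knockout replicate 1 at 359 CPM of choroid plexus markers, each with less Sulf1 than all 5 wild-type libraries. These sums do not stand for every marker. Six3 and Penk in knockout replicate 8, and Ttr in knockout replicate 1, were below all 5 wild-type libraries. Wild-type replicate 5 is the highest library for both striatal markers and Sulf1.

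Levels of different genes were compared as CPM per kilobase of annotated exon (GENCODE M21). Sdc3, the syndecan typical of neural tissue, was the highest at 139.3 ± 4.88 in knockout and 142.8 ± 4.48 in wild type. Agrn, the secreted proteoglycan agrin that organises synapses at muscle, followed at 45.8 ± 3.11 in knockout and 48.4 ± 1.71 in wild type, and Sulf2 was next at 33.3 ± 1.17 in knockout and 32.4 ± 1.22 in wild type. The same 3 genes led with the longest transcript as length. Below them Extl3, Ndst1, Hs3st4 and Hs6st3 lay between 29.6 and 29.9 in knockout and between 26.3 and 30.3 in wild type. Their order changed between genotypes, Hs6st3 being the fourth in knockout and the seventh in wild type, and the annotated exons of Hs6st3 cover only 1708 bases. These places depend on the length used: with the longest transcript Hs6st3 ranked 8 in knockout and 9 in wild type, Ndst1 was at place 4, Hs6st1 at 5 and Gpc1 at 6 in both genotypes.

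At the low end, Sulf1 ranked 31 of 34 in both genotypes, at 0.792 ± 0.133 CPM per kilobase in knockout and 1.53 ± 0.31 in wild type. Its annotated exons cover 11294 bases and its longest transcript 5598, and with the longest transcript as length it ranked 27 in wild type and 31 in knockout. By exon length 3 members were lower, Hpse, Hs3st3b1 and Gpc2. Between neighbours in the wild-type order, the ranges of the 5 libraries overlapped for 21 of 33 pairs and were apart for 12, among them Sdc3 over Agrn and Agrn over Sulf2. Ndst4 and Sulf1, next to each other at 1.54 and 1.53 CPM per kilobase in wild type, overlapped.

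**Figure D4:**
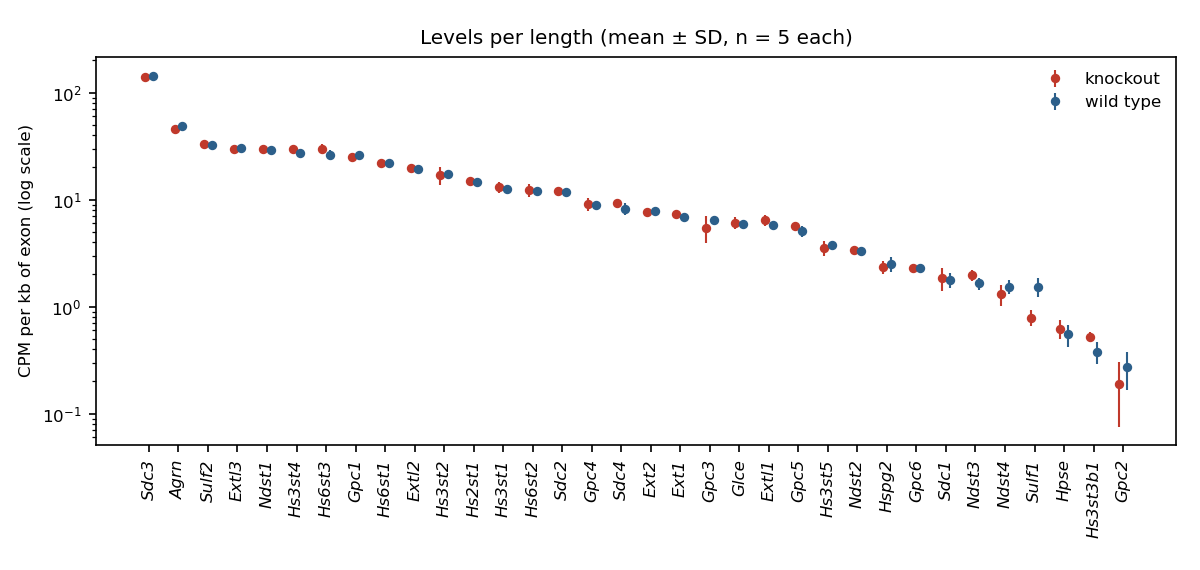
Level of each of the 34 members as CPM per kilobase of exon on a log axis, knockout and wild type, with points for the mean and bars for the SD of 5 libraries. The order runs over more than 2 decades, with Sdc3 at 139.3 in knockout and 142.8 in wild type at the top, and Gpc2 at 0.191 in knockout and 0.273 in wild type at the bottom.

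The chain polymerases showed 0 calls among 5. Ext1 and Ext2 form the complex that extends the chain, and Ext1 read 59.5, 58.5, 61.6, 56.2 and 63.7 CPM in knockout libraries, against 55.3, 58.4, 54.4, 56.3 and 55.9 CPM in wild-type libraries. The groups overlapped in the region of 56 to 58 CPM, and the log2 fold change was 0.10 (SE 0.0576, edgeR adjusted p = 0.696). Ext2 averaged 56.8 CPM in knockout and 57.8 CPM in wild type. Extl3, which adds the first glucosamine of the chain, averaged 180 CPM in knockout and 184 CPM in wild type and made up 41.8% of the family's RNA per length in knockout and 43.3% in wild type. Extl1, a further glucosamine transferase, read 22.8 to 32.03 CPM in knockout and 22.6 to 26.6 CPM in wild type, and its log2 difference of 0.16 (SE 0.0887) had an edgeR adjusted p of 0.634. Extl2 averaged 67.6 CPM in knockout and 66.0 CPM in wild type.

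The N-deacetylase/N-sulfotransferases start sulfation by replacing the acetyl group of glucosamine. Ndst1 carried most of this family, with 81.6 ± 2.19% of its RNA per length in knockout and 81.8 ± 0.694% in wild type. Its level was 245 ± 8.51 CPM in knockout and 242 ± 6.09 CPM in wild type, with a 95% interval of the fold of 0.951 to 1.08. Ndst2 averaged 15.4 CPM in knockout and 15.01 CPM in wild type.

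Ndst3 and Ndst4, the forms largely restricted to neural tissue, had opposite signs. Ndst3 read 22.1, 17.7, 19.3, 21.3 and 16.9 CPM in knockout libraries, against 17.9, 15.1, 14.4, 18.9 and 15.1 CPM in wild-type libraries, or 0.26 on the log2 scale (SE 0.105, edgeR unadjusted p = 0.0215, adjusted p = 0.439). Ndst4 read 20.5, 14.1, 13.3, 16.3 and 11.97 CPM in knockout libraries, against 16.8, 21.5, 14.8, 19.5 and 17.6 CPM in wild-type libraries, or -0.25 on the log2 scale (SE 0.127, adjusted p = 0.607). Both genes overlapped between genotypes, knockout replicate 1 having the highest value of its group for each, and neither passed the test. Their transcripts share an exact run of 56 bases, so single reads that lie wholly within it could belong to either.

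Glce, the epimerase that turns glucuronic into iduronic acid, averaged 41.5 ± 5.32 CPM in knockout and 40.5 ± 0.841 CPM in wild type. Hs2st1, which then sulfates iduronic acid at the 2-O position, averaged 122 ± 8.65 CPM in knockout and 119 ± 1.86 CPM in wild type. In both genes the means were nearly equal and the knockout libraries were more spread out. The coefficient of variation over libraries had a median of 10.1% over the 34 members in knockout and 6.90% in wild type.

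The 3-O-sulfotransferases add the rarest sulfate of the chain. Hs3st4, the neuronal form with the highest level of the family, read 93.3, 90.1, 101, 95.1 and 93.1 CPM in knockout libraries, against 88.7, 90.1, 87.3, 81.8 and 88.9 CPM in wild-type libraries. All knockout libraries were above all wild-type libraries, though knockout replicate 3 and wild-type replicate 4 differed only beyond the digits printed. The log2 fold change was 0.11 (SE 0.0522, edgeR unadjusted p = 0.0362, adjusted p = 0.516). Hs3st3b1, a low member of the family, read 2.51, 2.59, 2.999, 2.34 and 2.41 CPM in knockout libraries, against 2.31, 1.88, 1.62, 1.26 and 2.29 CPM in wild-type libraries. It too did not overlap, by a margin of 2.34 CPM in knockout against 2.31 CPM in wild type. Its log2 fold change was 0.46 (SE 0.257, adjusted p = 0.663), with a 95% interval of the fold of 0.955 to 1.98.

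Hs3st3b1 and Hs3st3a1, which is no member of the set, share an exact run of 401 bases, so reads may be split between them and both values are uncertain. Hs3st3a1 averaged 0.991 CPM in knockout and 0.855 CPM in wild type. Hs3st2, a neuronal form, averaged 51.3 ± 9.59 CPM in knockout and 52.8 ± 3.402 CPM in wild type. Hs3st1 averaged 29.0 CPM in knockout and 27.8 CPM in wild type, and Hs3st5 averaged 15.5 CPM in knockout and 16.5 CPM in wild type. For Hs3st2 and Hs3st5 knockout replicate 8 was the highest library of all 10.

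The 6-O-sulfotransferases place the sulfate that Sulf1 and Sulf2 remove. Hs6st3 read 57.1, 51.5, 51.5, 41.8 and 53.2 CPM in knockout libraries, against 39.9, 41.8, 47.1, 52.0 and 44.1 CPM in wild-type libraries. Knockout replicate 6 lay among the lower wild types and wild-type replicate 6 among the knockouts, and the log2 fold change was 0.18 (SE 0.0790, edgeR unadjusted p = 0.0297, adjusted p = 0.485). Hs6st1 averaged 122 CPM in knockout and 121 CPM in wild type, and Hs6st2 averaged 95.5 ± 13.7 CPM in knockout and 93.8 ± 7.16 CPM in wild type. Hs6st2 and Hs6st3 share a run of 52 bases and Hs6st1 and Hs6st3 one of 42 bases. Hpse, heparanase, which cleaves the chain, averaged 2.20 ± 0.447 CPM in knockout and 1.94 ± 0.450 CPM in wild type (log2 fold change 0.18, SE 0.271).

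**Figure D5:**
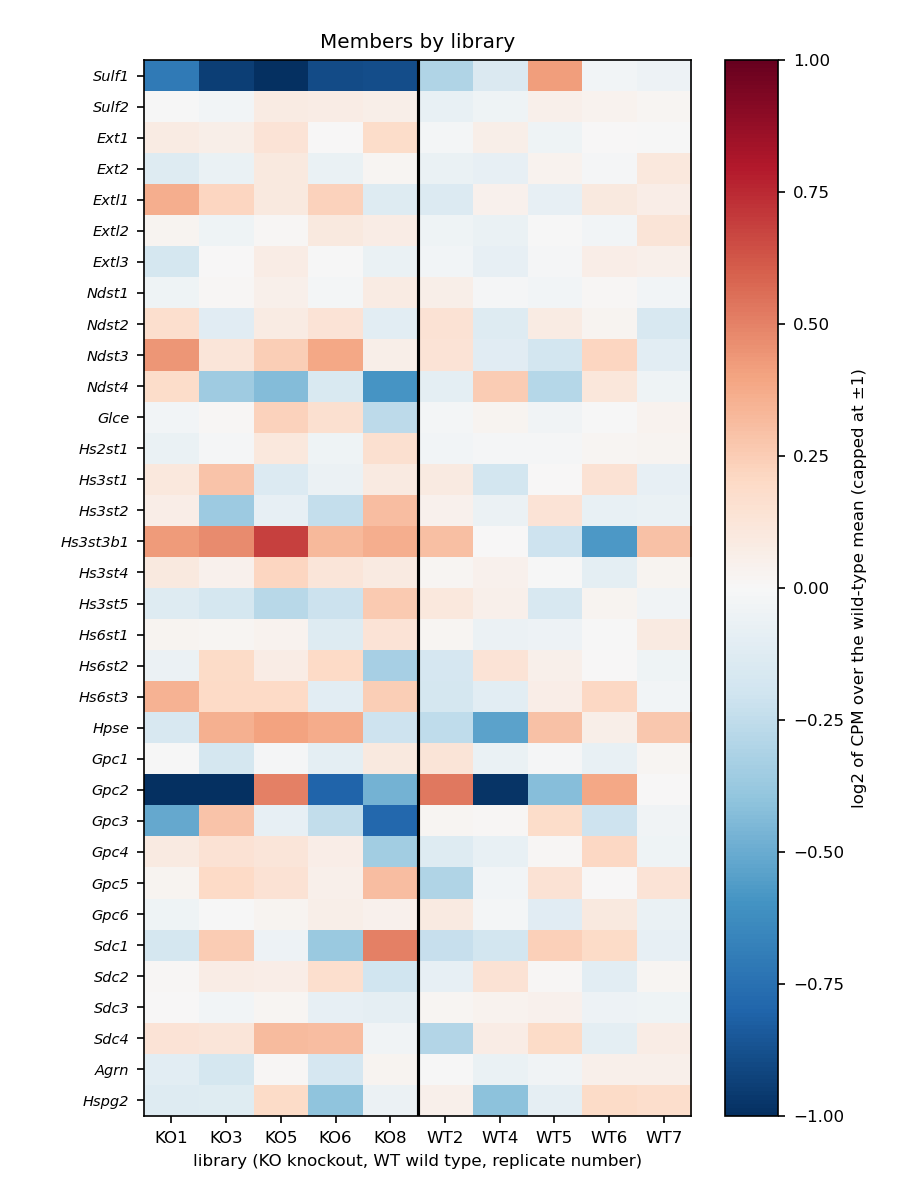
Log2 of each library's CPM over the wild-type mean for the 34 members, colour capped at ±1, with 5 knockout libraries left of 5 wild-type libraries. Sulf1 is below the wild-type mean in all 5 knockout libraries, and Gpc2, at 0.386 to 1.65 CPM in knockout and 0.591 to 1.68 CPM in wild type, varies within both groups.

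Among the core proteins, 0 of 6 glypicans, 0 of 4 syndecans and 0 of 2 secreted proteoglycans passed the test. Glypicans are tethered to the membrane by a lipid anchor. Gpc1 averaged 130.1 CPM in knockout and 133 CPM in wild type, and it made up 52.6% of the glypican RNA per length in knockout and 52.9% in wild type. Ankmy1, on the opposite strand, overlaps 18.9% of its annotated exons, and the strand setting of the counting is not given in the sources used here, so reads of both cannot be told apart there. Gpc4, a form that astrocytes release and that promotes synapses, averaged 24.1 CPM in knockout and 23.7 CPM in wild type. Gpc5 averaged 25.2 ± 2.03 CPM in knockout and 22.7 ± 2.72 CPM in wild type, and Gpc6 averaged 14.8 ± 0.420 CPM in knockout and 14.6 ± 0.963 CPM in wild type.

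Gpc3 read 12.1, 20.98, 16.3, 14.5 and 10.01 CPM in knockout libraries, against 17.4, 17.3, 19.6, 14.9 and 16.8 CPM in wild-type libraries. The knockout libraries ran both above and below the wild types, and the log2 fold change was -0.22 (SE 0.147, edgeR adjusted p = 0.747). The summed level of 12 meningeal fibroblast markers was 459, 664, 729, 694 and 518 CPM in the same knockout libraries, against 592 to 655 CPM in wild-type libraries. Knockout replicates 1 and 8, the lowest for Gpc3, were the lowest for these markers too, and the part of those markers in Gpc3 was not tested. Gpc2, a glypican of immature neurons, rested on 7 to 34 reads per library, with means of 0.817 CPM in knockout and 1.17 CPM in wild type (log2 fold change -0.53, SE 0.413, adjusted p = 0.808). Of its annotated exons, 55.6% overlap the gene model Gm43720 on the same strand, so its value is uncertain.

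Syndecans span the membrane. Sdc3 read 857, 838, 867, 807 and 801 CPM in knockout libraries, against 866, 877, 879, 824 and 828 CPM in wild-type libraries. The groups overlapped, at 834 ± 29.2 CPM in knockout and 855 ± 26.9 CPM in wild type, and Sdc3 held 85.8 ± 0.831% of the syndecan RNA per length in knockout and 86.8 ± 0.854% in wild type. Sdc4 read 23.0, 22.7, 26.1, 26.02 and 20.5 CPM in knockout libraries, against 17.1, 22.1, 23.9, 19.6 and 22.1 CPM in wild-type libraries, or 0.18 on the log2 scale (SE 0.0975, edgeR adjusted p = 0.651). Sdc2, which neurons carry at dendritic spines, averaged 42.3 CPM in knockout and 41.4 CPM in wild type. Sdc1 averaged 7.09 ± 1.75 CPM in knockout and 6.77 ± 1.02 CPM in wild type.

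The secreted proteoglycans had negative log2 fold changes that did not pass the test. Agrn averaged 425 ± 28.9 CPM in knockout and 449 ± 15.9 CPM in wild type (-0.08, SE 0.0482, edgeR adjusted p = 0.692). Hspg2, perlecan of the vascular basement membrane, averaged 33.7 CPM in knockout and 35.9 CPM in wild type (-0.10). Endothelial markers summed to 246 to 271 CPM in knockout and 244 to 271 CPM in wild type.

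Taking the 33 members other than Sulf1 as one list, log2 fold changes ran from -0.53 to 0.46 with a median of 0.03, 22 of them positive and 11 negative. The lowest adjusted p was 0.439. For 30 of the 33 the 95% interval of the fold stayed within 1.5-fold in either direction, and for 20 within 1.2-fold. The 3 whose interval reached farther, Hs3st3b1, Hpse and Gpc2, are also the 3 with the lowest level per kilobase.

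Other genes of the pathway gave 0 calls. Of 76 listed genes, 74 were tested (Hs3st6 and Slc35d2 were not) and 0 passed the edgeR test in either direction, while 10 had an unadjusted p below 0.05, 6 with higher and 4 with lower means in knockout. DESeq2 and limma-voom also called 0. Over all tested genes, 0.381% passed the edgeR test and 8.71% had an unadjusted p below 0.05. Neither the pathway count nor the counts by role below were tested against that share, and nothing is read from them. Over these 74 genes the median was -0.0050 on the log2 scale. By role, the unadjusted count was 1 of 7 genes for linker synthesis, 0 of 10 for precursor supply, 0 of 2 for other chain enzymes, 3 of 8 for other proteoglycans, 1 of 8 for lysosomal degradation, 2 of 22 for ligands and receptors, 3 of 9 for genes induced by fibroblast growth factor signalling and 0 of 8 for genes induced by Wnt signalling.

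The pair of lowest p-value in each list was examined whatever its direction. Slit2, a guidance cue that binds heparan sulfate, averaged 43.8 ± 5.86 CPM in knockout and 51.5 ± 3.26 CPM in wild type (log2 fold change -0.23, SE 0.0776, edgeR adjusted p = 0.280). Its receptor Robo1 averaged 88.6 ± 9.73 CPM in knockout and 101 ± 4.14 CPM in wild type (-0.19, SE 0.0618, adjusted p = 0.256). Both overlapped between genotypes, Robo1 through knockout replicates 1 and 5 at 99.6 and 98.8 CPM, against a lowest wild-type library of 98.01 CPM.

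Among genes induced by fibroblast growth factors, Etv5, a transcription factor, read 59.6, 74.5, 67.3, 74.4 and 56.2 CPM in knockout libraries, against 55.3, 53.4, 64.9, 58.9 and 54.2 CPM in wild-type libraries (0.21, SE 0.0753, edgeR adjusted p = 0.339). Without knockout replicate 8 it passed the test, at 0.27 (SE 0.0702, adjusted p = 0.0463). In that fit 182 of all tested genes were called, against 59 with all libraries. Spry4, an inhibitor of the same pathway, averaged 19.7 ± 3.18 CPM in knockout and 16.7 ± 1.201 CPM in wild type (0.24, SE 0.105, adjusted p = 0.503). Astrocyte markers summed to 3785, 3948, 4026, 4223 and 3610 CPM in the same knockout libraries and to 3430 to 3906 CPM in wild-type libraries, and their part in these values was not tested. The Wnt-induced genes Lgr5 and Rnf43 had opposite signs, Lgr5 at 1.34 CPM in knockout and 1.96 CPM in wild type, and Rnf43 at 3.94 CPM in knockout and 3.29 CPM in wild type.

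Of the further proteoglycans, Tgfbr3 (betaglycan) averaged 9.50 ± 2.06 CPM in knockout and 12.4 ± 1.36 CPM in wild type (log2 fold change -0.38, SE 0.138, edgeR adjusted p = 0.345). Spock1 (testican) averaged 239 ± 14.8 CPM in knockout and 261 ± 20.3 CPM in wild type (-0.13, SE 0.0536, adjusted p = 0.442). In the lysosomal list, Idua, the iduronidase that degrades the chain, read 4.79, 6.46, 4.84, 5.40 and 6.49 CPM in knockout libraries, against 3.10, 4.35, 4.40, 3.51 and 4.68 CPM in wild-type libraries (0.49, SE 0.177, adjusted p = 0.351). It was the 1 pathway gene of 74 whose genotypes did not overlap, against 1.83% of all tested genes, and nothing is read from that count. Hgsnat, which acetylates the chain's glucosamine before it is degraded, averaged 44.4 CPM in knockout and 41.1 CPM in wild type.

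Of the genes for linker synthesis and precursor supply, 0 passed the test. B3gat3, which completes the linker to the core protein, averaged 89.4 CPM in knockout and 80.9 CPM in wild type (log2 fold change 0.14, edgeR unadjusted p = 0.0383, adjusted p = 0.523), and Fam20b, the kinase of the linker xylose, averaged 133 CPM in knockout and 125 CPM in wild type. Slc35b3, a carrier of the sulfate donor, averaged 12.3 CPM in knockout and 14.3 CPM in wild type, and Uxs1, which makes the xylose donor, averaged 26.03 CPM in knockout and 24.8 CPM in wild type. Hpse2, a heparanase relative, averaged 0.897 CPM in knockout and 1.40 CPM in wild type (-0.65, SE 0.377, adjusted p = 0.673).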

How the data were processed

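The authors deposited a table of raw counts per gene for 10 libraries, with Entrez IDs as row names. HISAT2, featureCounts and the build mm39 are named per the submitters' processing notes, while the sources used here give no version, annotation or strand setting. Of 30935 IDs, 30648 matched a symbol in a RefSeq table of GRCm38.p6, used for names only, and 7616 had no count in any library. Columns were assigned by sample title.

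The deposited counts were fitted in edgeR 4.0.16 under R 4.3.3 (TMM scaling, filterByExpr, robust quasi-likelihood test, genotype as sole term, Benjamini-Hochberg adjustment over 15488 genes, threshold 0.05). CPM use the scaled totals. Levels per kilobase and shared runs use GENCODE M21 on GRCm38, not the authors' annotation. The edgeR p-values weigh the genotype difference against the spread between these samples. Libraries of 1 genotype differed beyond counting noise (chi-square per degree of freedom 4.10 to 13.9 over genes with 20 or more counts). Alternatives were RLE scaling, no filter, a filter of 50 counts in 5 libraries, DESeq2 1.42.0, limma 3.58.1 with voom, each library left out, knockout replicates 3, 5 and 6 left out together, a replicate block, and covariates for sex by Xist and Y-linked genes, striatal and choroid plexus markers. The longest-transcript length was added after seeing the data. On simulated counts for 15352 genes, the fit recovered 86.2% of genes changed 2-fold, 65.7% at 1.5-fold and 28.8% at 1.2-fold, and 11 of 130 calls were on unchanged genes. The members and lists were chosen with earlier results of these data known. All members are named, and of each pathway list the 2 genes of smallest p and any called gene.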

Additional observations from a re-analysis of the deposited data

Results flagged for a closer look

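A test for a single library far from the other 4 of its genotype marked 7 of 102 groups of 5 libraries, where chance marks about 1 in 20. The Sulf1 to Sulf2 log2 ratio of wild-type replicate 5 was -3.10, above the -3.69 to -3.53 of the other wild types; without that library the genotype difference was -0.89.

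Knockout replicate 8 stood out for 2 members, with Hs3st5 at 19.7 CPM over 13.6 to 15.1 CPM in the other knockouts, and Gpc4 at 18.6 CPM under 24.8 to 26.2 CPM. Wild-type replicate 7 held 72.2 CPM of Extl2, above 63.2 to 65.8 CPM in the other wild types. Among pathway genes, B3gat3 was low in knockout replicate 5 (73.3 CPM, others 89.5 to 95.7 CPM), Uxs1 was low in knockout replicate 6 (20.9 CPM, others 26.8 to 28.03 CPM) and Robo1 was high in wild-type replicate 6 (108 CPM, others 98.01 to 101 CPM).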

How the results depend on the processing

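Sulf1 was called, with log2 fold changes of -0.93 to -0.95, under RLE scaling, without the filter, with the stricter filter, in DESeq2, in limma-voom and with the sex covariate, and Sulf2 was called under none of the alternatives. Leaving out 1 library at a time gave -0.82 to -1.01 for Sulf1, 0.02 to 0.05 for Sulf2, -0.86 to -1.06 for the Sulf1 to Sulf2 log2 ratio (each exact p = 0.0159, the smallest that 126 assignments allow), 1 member called throughout, 3 to 4 members without overlap, and 0 to 1 pathway genes called. The call of Sulf1 was lost, so that 0 members passed, with the striatal covariate (-0.55), the choroid plexus covariate (-0.71) and without knockout replicates 3, 5 and 6 (-0.79); the last leaves 2 knockout libraries. There the log2 ratio was -0.80 (exact permutation p = 0.0952, the smallest that 21 assignments allow). In that setting 6 members did not overlap, Ext1, Hs3st3b1, Hs3st4 and Hs6st3 higher and Sulf1 and Gpc3 lower. Leaving out libraries can add such genes but cannot remove any. The share over all genes was not computed for this setting, so nothing is read from these 6. Over all genes, the count called was 59 in edgeR, 171 without the filter, 115 in DESeq2, 27 with the block, 28 with the sex covariate, 15 to 182 with 1 library left out, 12 without knockout replicates 3, 5 and 6, and 0 with either marker covariate. The genotypes share replicate numbers 5 and 6 alone, and deviations of same-numbered libraries correlated at -0.03 and -0.06, so the numbers do not pair the mice. With the replicate block, which rests on those 4 libraries, Sulf1 was at -1.33 and the log2 ratio at -1.38. Of 956 values under alternatives, 870 differed by no more than 1 standard error, 85 moved and 1 (Etv5 without knockout replicate 8) gained a call. Counted were the fold changes of single genes other than Sulf1 and Sulf2, and the Sulf1 share of the sulfatase level in each genotype. Both shares moved. The cause was not tested. Depth limits Gpc2, Hs3st3b1 and Hpse, whose intervals exceed 1.5-fold.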
